A study of Homo sapiens with 8 samples.

Results

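The nuclear genes of the respiratory complexes are the genes outside mitochondrial DNA that encode the subunits of complexes I to IV of the respiratory chain and of ATP synthase (complex V). They were taken by gene symbol: NDUFA, NDUFB, NDUFC, NDUFS and NDUFV genes with a number, SDHA to SDHD, the UQCR genes and CYC1, the structural COX genes, and every symbol that begins with ATP5 and is no numbered pseudogene. This gave 84 of the 58302 genes in the files, of which 80 encode subunits (36 of complex I, 4 of complex II, 9 of complex III, 16 of complex IV and 15 of complex V). The other 4 are the ATP synthase assembly gene ATP5S, the read-through gene ATP5J2-PTCD1, the pseudogene ATP5J2LP and the ATP5L copy ATP5L2. A count filter over all genes kept 79 of the 84. COX4I2, COX6A2, ATP5J2LP and ATP5L2 had a count of 0 in every library, which allows up to 3 counts or 0.0998 CPM (counts scaled to library size) in the smallest library, and COX7A1 reached at most 4 counts.

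The respiratory chain passes electrons from NADH (at complex I) and succinate (at complex II) through coenzyme Q, complex III and cytochrome c to oxygen at complex IV, and the protons pumped on the way drive ATP synthase. Most subunits are nuclear-encoded and imported, while a few core subunits of complexes I, III, IV and V are encoded in mitochondrial DNA, so each complex is built from the products of both genomes. In cultured tumour cells transcripts of these subunits are abundant, and they are commonly treated as housekeeping genes.

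RNA was sequenced from A549, an established human lung adenocarcinoma cell line, in a study of possible resistance pathways after treatment with TP-0903. TP-0903 is a kinase inhibitor directed at AXL, a receptor tyrosine kinase. The groups were A549 cells with an shRNA (short hairpin RNA) against AXL, cells with a control shRNA, cells given TP-0903 at 40 nM, and control cells without a hairpin, with 2 libraries each. All groups grew in the same serum-containing medium. The labels give a number after the letter P: 15 and 3 in both shRNA groups, 17 and 4 in the TP-0903 and control groups. Neither the meaning of that number, the hairpin sequences, the number of hairpins or clones, the time in drug nor what the control cells received is given in the sources used here. The libraries are labelled biological replicates, and since nothing more is said of their cultures, the p-values below measure the spread between these libraries.

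Library totals ran from 30067011 to 44217023 expected counts. AXL itself had 15.3 and 17.7 TPM (transcript level scaled to length and library) in AXL shRNA libraries, against 30.0 and 44.5 TPM in control shRNA libraries. The groups did not overlap, but the log2 fold change of -0.92 missed the threshold (edgeR's quasi-likelihood test, adjusted p = 0.120) and passed with the P number as a block (-0.89, adjusted p = 8.58e-04). In TP-0903 libraries AXL had 91.4 (P17) and 49.3 TPM (P4), against 70.7 (P17) and 34.8 TPM (P4) in control libraries, so the groups overlapped (log2 fold change 0.43, adjusted p = 0.544; with the block, adjusted p = 0.0354). The 7 markers fixed for A549 (EPCAM, KRT8, KRT18, KRT19, CDH1, NQO1 and AKR1B10) summed to 27357 and 24131 TPM with AXL shRNA, against 11524 and 10167 TPM with control shRNA, and 5 of the 7 were higher with AXL shRNA. The 18 markers of leukocytes, red cells, endothelium, fibroblasts and muscle together summed to 28.7 to 54.5 TPM in every library. Of these, PTPRC, CD3E, COL1A2 and MYH7 stayed at or below 0.03 TPM. Others were higher, with CD68 reaching 19.6, MB 18.6, COL1A1 14.3 and CD14 7.55 TPM in some library. Of the 8 tested, 3 were higher (CD79A, HBA1 and COL1A1) and 1 was lower (CD14) with AXL shRNA. The part of the epithelial shift in the results below was not tested. In bulk samples fewer cells of a kind and less RNA per cell cannot be told apart.

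Nuclear respiratory genes were strongly expressed in all 4 groups. The 77 tested subunit genes had mean levels between 0.798 TPM (COX6B2) and 1086 TPM (ATP5J2), with a median of 158 TPM. With AXL shRNA, UQCRH and 18 other members were higher and NDUFB7, ATP5H and 8 other members were lower than with control shRNA. Complexes I and V had calls in both directions. TP-0903 changed 1 member, NDUFC1, which was lower.

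For AXL shRNA against control shRNA, 19 of 79 tested members (24.1%) were higher at an adjusted p under 0.05, where 18.5% of all 17676 tested genes were higher. The 10 members that were lower made up 12.7% of the members, where 19% of all genes were lower. The median log2 fold change of the members was 0.10, beside -0.01 over all genes. In TMM-scaled CPM (TMM, trimmed mean of M values, sets the library sizes), both AXL shRNA libraries lay above both control shRNA libraries in 35 tested members, below them in 20, and overlapped them in 24. All 29 called members were among those that did not overlap. Overlap was not counted over all genes, so these 3 counts cannot be read as a trait of the members. For TP-0903 against control 0 members were higher in edgeR, where 4.9% of all genes were, and 1 member was lower, where 6.35% of all genes were. At an unadjusted p under 0.05, 3 members were higher and 4 lower, and limma-voom and DESeq2 also gave 0 higher and 1 lower at an adjusted p under 0.05. Of all 17676 tested genes, 874 were higher and 1105 lower in limma-voom, and 1492 and 1510 in DESeq2. The 2 main comparisons have the same median standard error over the members, 0.119 on the log2 scale, while 16 members passed a log2 fold change of 0.5 in size with AXL shRNA and 2 with TP-0903. With the P number as a block, 2 members were higher (NDUFB3 and NDUFS5) and 2 were lower (NDUFA6 and NDUFC1) with TP-0903. Of all 17676 tested genes, 2285 were higher and 2362 lower in that fit.

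**Figure D1:**
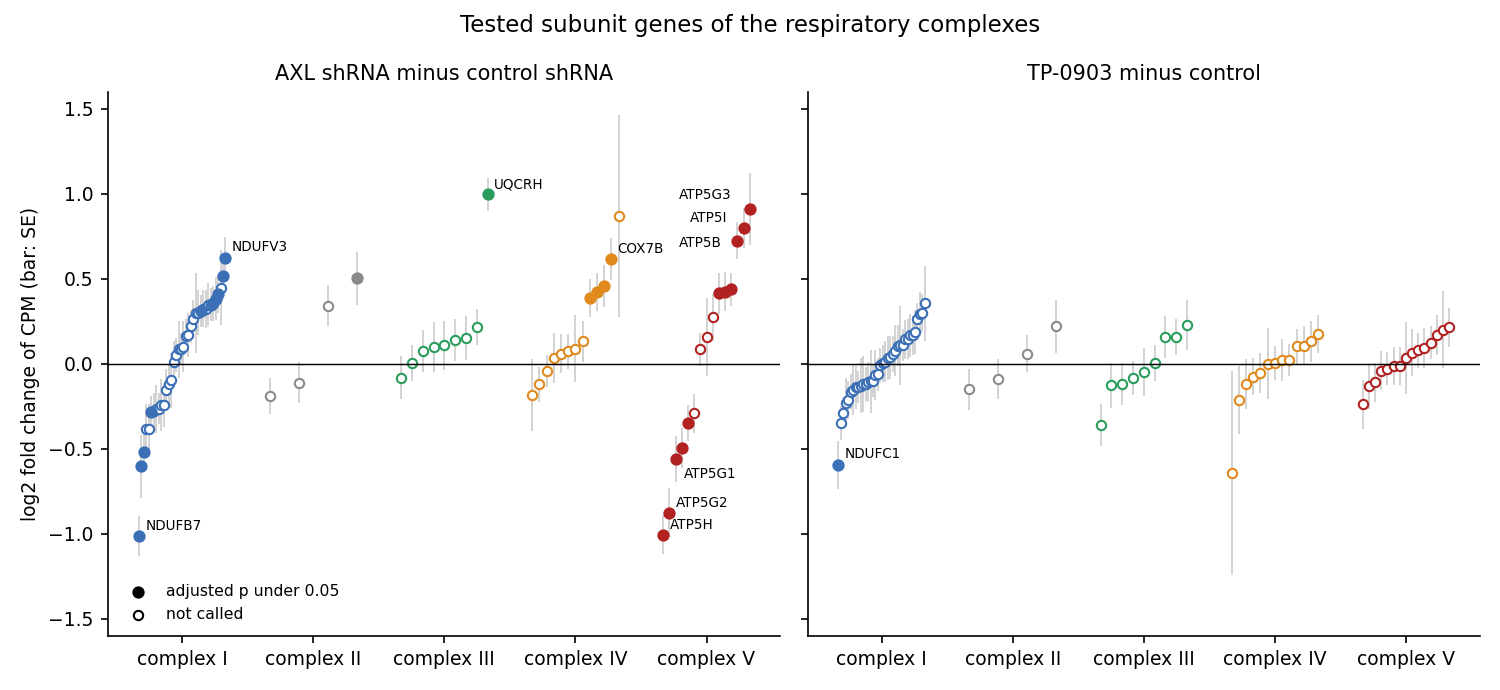
Log2 fold change of the 77 tested subunit genes, by complex, for AXL shRNA minus control shRNA and for TP-0903 minus control. Filled points passed an adjusted p of 0.05 in the edgeR fit over all genes. With AXL shRNA 19 points are filled above 0 and 9 below it, with both directions inside complexes I and V. With TP-0903 1 point is filled. Members that encode no subunit, such as ATP5S (lower with AXL shRNA), are not drawn.

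The direction of small changes depended on the scale. On log2(TPM + 1) the median of all genes shifted by -0.15 with AXL shRNA and that of the members by -0.14. In limma's test on that scale 5 members were higher and 19 lower. Of all 17676 tested genes, 2008 were higher and 4404 lower in the same test. Of the 29 edgeR calls, all 29 kept their sign on the TPM scale and 15 also passed there. Reads taken up by mitochondrial genes moved with the same comparison: they were 6.79% and 7.78% of counts with AXL shRNA, against 3.94% and 5.17% with control shRNA, and 5.16% and 5.82% with TP-0903, against 3.68% and 3.58% in control. Their part in the results was not tested. Of the 29 calls, 9 held when any 1 library was left out: NDUFB7, NDUFB8, NDUFV3, UQCRH, COX7B, ATP5B, ATP5G2, ATP5H and ATP5I.

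The promoters of the genes with the firmest calls, and of 2 genes for the same mature protein, are shown first, as the 250 bases before the annotated RefSeq start in GRCh38.p14, 5′ to 3′ on the gene's strand. Capitals mark matches on either strand to 5 motif words: GCGCATGC (the core of the NRF1 site), CCGGAAGT (ETS factors such as GABP), AAGATGGC (YY1), CCAAT (the CCAAT box) and TGACGTCA (the CREB core). ATP5H (current name ATP5PD, subunit d) and NDUFB7 were lower and UQCRH was higher with AXL shRNA in every alternative run. ATP5G1 and ATP5G2 (current names ATP5MC1 and ATP5MC2) were both lower and encode the same c subunit.
ATP5H, chr17:75046970-75047219, minus strand: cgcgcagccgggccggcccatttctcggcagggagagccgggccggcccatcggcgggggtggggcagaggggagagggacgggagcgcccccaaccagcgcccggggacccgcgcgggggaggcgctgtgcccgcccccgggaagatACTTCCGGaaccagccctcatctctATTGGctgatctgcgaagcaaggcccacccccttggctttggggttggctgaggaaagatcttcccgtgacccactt
NDUFB7, chr19:14572067-14572316, minus strand: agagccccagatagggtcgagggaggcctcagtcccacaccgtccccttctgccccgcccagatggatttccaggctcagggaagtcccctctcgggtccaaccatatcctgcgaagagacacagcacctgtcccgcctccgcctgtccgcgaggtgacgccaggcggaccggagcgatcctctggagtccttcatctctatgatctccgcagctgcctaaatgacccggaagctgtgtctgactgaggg
UQCRH, chr1:46303448-46303697, plus strand: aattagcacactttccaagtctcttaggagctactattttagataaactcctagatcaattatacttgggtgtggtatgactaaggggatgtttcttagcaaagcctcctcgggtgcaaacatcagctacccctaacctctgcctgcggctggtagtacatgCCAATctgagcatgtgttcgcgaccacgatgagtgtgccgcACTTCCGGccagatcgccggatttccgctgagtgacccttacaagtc
ATP5G1, chr17:48892537-48892786, plus strand: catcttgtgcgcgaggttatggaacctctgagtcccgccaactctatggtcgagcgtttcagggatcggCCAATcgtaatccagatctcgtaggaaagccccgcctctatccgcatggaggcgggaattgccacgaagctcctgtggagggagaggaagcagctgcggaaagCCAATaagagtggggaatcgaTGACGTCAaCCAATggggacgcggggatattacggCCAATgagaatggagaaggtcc
ATP5G2, chr12:53676084-53676333, minus strand: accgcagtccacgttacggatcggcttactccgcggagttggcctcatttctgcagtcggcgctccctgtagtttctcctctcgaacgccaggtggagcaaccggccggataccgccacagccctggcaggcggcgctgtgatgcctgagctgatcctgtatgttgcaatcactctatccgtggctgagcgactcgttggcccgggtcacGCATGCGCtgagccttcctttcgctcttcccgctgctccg
The window of ATP5H holds an ETS word that begins 102 bases before the start and a CCAAT word 77 bases before it. That of UQCRH, which moved the other way, holds the same pair of words, 88 bases (CCAAT) and 47 bases (ETS) before the start. NDUFB7 has none of the 5 words in its window. ATP5G1 has 4 CCAAT words, at 181, 78, 48 and 22 bases, and a CREB core at 57 bases. In the first of its 3 windows ATP5G2 has an NRF1 core 40 bases before the start. ATP5G3 and ATP5B are named only.

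Of the 80 subunit genes, 64 had a RefSeq window, 77 windows in all. The NRF1 core stood in 18.2% of these windows, against 2.63% of the 35116 windows of all genes, and the ETS word in 14.3%, against 3.42%. The CREB core stood in 5.19% against 1.65%, the YY1 word in 2.6% against 1.36%, and the CCAAT word in 32.5% against 32.0%. Among the 13 tested genes with an NRF1 core, 2 were higher and 2 lower with AXL shRNA (median log2 fold change -0.10), and none changed with TP-0903 (median -0.03). Among the 50 tested genes with a window but no such word, 14 were higher and 7 lower with AXL shRNA (median 0.14), and 1 was lower with TP-0903 (median 0.00). These matches describe letters, not binding.

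Complex I takes electrons from NADH. In AXL shRNA libraries 7 of its 36 nuclear genes were higher and 4 lower than in control shRNA libraries, with 2 higher and 0 lower among the 7 core subunits that carry the flavin and the iron-sulfur clusters, and 5 higher and 4 lower among the 29 accessory subunits, where 18.5% of all genes were higher and 19% lower. The share of higher genes in complex I was thus near that of all genes. NDUFB7, an accessory subunit of the membrane arm that faces the intermembrane space, had 63.7 (P15) and 64.8 TPM (P3) with AXL shRNA, against 149 and 160 TPM with control shRNA. It had 153 (P17) and 144 TPM (P4) with TP-0903, against 133 and 134 TPM in control. Both AXL shRNA libraries were thus below all 6 others, which lay close together. AXL shRNA gave a log2 fold change of -1.01 (SE 0.117, adjusted p = 0.00112 in edgeR), and the highest adjusted p with 1 library left out was 0.0087. With TP-0903 it was 0.17 (adjusted p = 0.388). The gene lies on the minus strand of chromosome 19 at 14566078 to 14572062 (GRCh38, GENCODE 29), shares no exon base with another expressed gene, and was also lower against the control cells without a hairpin (-0.83, adjusted p = 0.00201).

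NDUFV3, an accessory subunit of the NADH-oxidising tip, had 26.0 and 23.9 TPM with AXL shRNA, against 16.7 and 13.4 TPM with control shRNA. Its AXL shRNA libraries were above every other library of the series, where TP-0903 gave 21.2 and 19.2 TPM and control 19.4 and 16.3 TPM. The log2 fold change was 0.62 (SE 0.121, adjusted p = 0.00706 in edgeR), and 0.56 against control (adjusted p = 0.0109). NDUFB8, an accessory subunit of the membrane arm whose protein is often blotted as a marker of assembled complex I, had 240 and 238 TPM with AXL shRNA, against 204 and 193 TPM with control shRNA, and 276 and 242 TPM with TP-0903, against 260 and 268 TPM in control. Only the control shRNA libraries stood apart, at the low end. NDUFB8 changed by 0.52 on the log2 scale with AXL shRNA (SE 0.102, adjusted p = 0.00736), and against control it was 0.07 (adjusted p = 0.636). NDUFB8 shares exon bases with HIF1AN on the opposite strand, which had 143% of its counts and was higher too (log2 fold change 0.92), and since no strand is stated for the libraries, reads of the shared bases cannot be told apart.

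NDUFS4, an accessory subunit of the peripheral arm that is mutated in some cases of Leigh syndrome, had 87.5 and 78.3 TPM with AXL shRNA, against 154 and 129 TPM with control shRNA, and both groups were clear of each other. Its log2 fold change was -0.52 (SE 0.116, adjusted p = 0.0120 in edgeR), and the call was lost without AXL shRNA P3 or control shRNA P15. Against control NDUFS4 did not pass (-0.22, adjusted p = 0.185). NDUFA7, another accessory subunit, had 39.3 and 29.9 TPM with AXL shRNA, against 62.6 and 63.0 TPM with control shRNA (log2 fold change -0.60, adjusted p = 0.0396). It shares exon bases with RPS28, whose counts were 1210% of its own, and its call was lost in 5 of the 8 fits without 1 library, with a highest adjusted p of 0.180 without AXL shRNA P3. NDUFB10 was lower as well (log2 fold change -0.29, adjusted p = 0.0496) and lost its call in all 8 such fits, up to an adjusted p of 0.193 without control shRNA P3.

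NDUFS6, an accessory subunit that carries a zinc site, had 103 and 96.5 TPM with AXL shRNA, against 90.1 and 80.6 TPM with control shRNA (log2 fold change of CPM 0.41, adjusted p = 0.0253). The groups did not overlap, yet the call was lost without any 1 of the 4 shRNA libraries, up to an adjusted p of 0.105 without control shRNA P3. Among the core subunits, NDUFV2 and NDUFS3 were higher, with log2 fold changes of 0.36 (adjusted p = 0.0309) and 0.31 (adjusted p = 0.0381), and both lost the call in all 8 fits without 1 library, with highest adjusted p of 0.153 (without AXL shRNA P15) for NDUFV2 and 0.178 (without control shRNA P3) for NDUFS3. NDUFS3 shares exon bases with CELF1, which had 249% of its counts and was also higher (log2 fold change 0.75). The accessory genes NDUFA12 (0.38, adjusted p = 0.0494) and NDUFB11 (0.35, adjusted p = 0.0273) were the remaining calls, lost in 7 and 4 of the 8 fits, up to adjusted p of 0.246 without AXL shRNA P3 and 0.131 without control shRNA P3.

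Neither of the core genes NDUFV1 and NDUFS1 passed in either comparison without the P number as a block. NDUFV1, which binds NADH, had 111 and 103 TPM with AXL shRNA, against 129 and 129 TPM with control shRNA (log2 fold change of CPM 0.01, adjusted p = 0.966), and 149 and 132 TPM with TP-0903, against 139 and 116 TPM in control (0.17, adjusted p = 0.437). NDUFS1, the largest subunit, was higher in P3 than in P15 and in P4 than in P17 in every group. It had 43.4 (P15) and 67.5 TPM (P3) with AXL shRNA, against 37.3 (P15) and 46.7 TPM (P3) with control shRNA (0.30, adjusted p = 0.346; with the block 0.29, adjusted p = 0.0396), and 56.6 (P17) and 77.4 TPM (P4) with TP-0903, against 54.4 (P17) and 61.9 TPM (P4) in control (0.11, adjusted p = 0.807). It shares exon bases with EEF1B2 on the opposite strand, which had 282% of its counts.

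NDUFC1, a small accessory subunit of the membrane arm, was the member that changed with TP-0903. It had 65.5 (P17) and 56.9 TPM (P4) with TP-0903, against 102 and 88.9 TPM in control. It had 53.6 and 52.0 TPM with AXL shRNA, against 83.3 and 68.1 TPM with control shRNA. In both comparisons the treated libraries were below their controls. The log2 fold change was -0.59 with TP-0903 (SE 0.141, adjusted p = 0.0380 in edgeR) and -0.27 with AXL shRNA (adjusted p = 0.172), and the difference between these effects did not pass. The TP-0903 call was lost in all 8 fits without 1 library, up to an adjusted p of 0.197 without control P17. The gene lies on the minus strand of chromosome 4 at 139266880 to 139302551.

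Complex II oxidises succinate and is encoded wholly in the nucleus. SDHA, its flavoprotein, had 104 and 89.1 TPM with AXL shRNA, against 90.1 and 67.2 TPM with control shRNA, and 138 and 118 TPM with TP-0903, against 118 and 108 TPM in control. On the TPM scale the shRNA groups overlapped. The log2 fold change of CPM with AXL shRNA was 0.50 (SE 0.157, adjusted p = 0.0409), was lost in 7 of the 8 fits without 1 library (up to an adjusted p of 0.193 without control shRNA P3; without control shRNA P15 it held), and was -0.05 against control (adjusted p = 0.826). SDHA has expressed pseudogene copies with 4.66% to 9.22% of its counts, so its counts may be split. SDHB, the iron-sulfur subunit, had 63.5 and 63.6 TPM with AXL shRNA, against 76.7 and 84.7 TPM with control shRNA, and 93.9 and 89.8 TPM with TP-0903, against 112 and 98.6 TPM in control. The membrane anchor gene SDHC had 204 and 192 TPM with AXL shRNA, against 234 and 199 TPM with control shRNA, and 304 and 276 TPM with TP-0903, against 260 and 252 TPM in control. SDHD, the other anchor, had 81.3 and 72.2 TPM with AXL shRNA, against 78.5 and 67.1 TPM with control shRNA, and 76.0 and 66.9 TPM with TP-0903, against 80.0 and 72.6 TPM in control. SDHB, SDHC and SDHD passed in neither of these comparisons, but with the block SDHD was higher with AXL shRNA (0.34, adjusted p = 0.0164).

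Complex III hands electrons from coenzyme Q to cytochrome c. With AXL shRNA 1 of its 9 genes, UQCRH, was higher and none lower, where 18.5% of all genes were higher and 19% lower. UQCRH encodes the acidic hinge protein beside cytochrome c1. It had 506 (P15) and 508 TPM (P3) with AXL shRNA, against 319 and 280 TPM with control shRNA, and 378 (P17) and 407 TPM (P4) with TP-0903, against 422 and 421 TPM in control. The AXL shRNA libraries were the highest of the series and the control shRNA libraries the lowest. UQCRH changed by 1.00 on the log2 scale with AXL shRNA (SE 0.0991, adjusted p = 7.01e-04 in edgeR), at most an adjusted p of 0.00618 with 1 library left out, and it was 0.49 against control (adjusted p = 0.00806). With TP-0903 it was -0.08 (adjusted p = 0.629). UQCRH is a plus-strand gene of chromosome 1 (46303631 to 46316776). Its copies, the intronless UQCRHL among them, held 2.65% to 3.34% of its counts.

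The other 8 complex III genes stayed between -0.08 and 0.22 on the log2 scale with AXL shRNA. UQCRC1, a core protein, had 129 and 121 TPM with AXL shRNA, against 147 and 132 TPM with control shRNA, and 230 and 170 TPM with TP-0903, against 182 and 153 TPM in control. UQCRC2, the second core protein, had 186 and 168 TPM with AXL shRNA, against 198 and 142 TPM with control shRNA, and 169 and 169 TPM with TP-0903, against 190 and 167 TPM in control. UQCRFS1, the Rieske iron-sulfur protein, had 83.0 and 77.6 TPM with AXL shRNA, against 103 and 87.3 TPM with control shRNA, and 115 and 110 TPM with TP-0903, against 118 and 111 TPM in control. None of these genes passed in either comparison. CYC1, cytochrome c1, had 168 and 141 TPM with AXL shRNA, against 173 and 174 TPM with control shRNA (0.07, adjusted p = 0.672), and 166 and 152 TPM with TP-0903, against 209 and 209 TPM in control, a log2 fold change of -0.36 that missed the threshold (adjusted p = 0.107) although both TP-0903 libraries were below both controls.

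Complex IV reduces oxygen. Of its 13 tested genes 4 were higher and none lower with AXL shRNA, where 18.5% of all genes were higher and 19% lower. COX7B, a small membrane subunit, had 82.6 and 84.4 TPM with AXL shRNA, against 77.1 and 54.0 TPM with control shRNA, and 96.1 and 83.6 TPM with TP-0903, against 94.5 and 89.02 TPM in control. The low value was control shRNA P3. COX7B was 0.62 higher on the log2 CPM scale in AXL shRNA than in control shRNA libraries (SE 0.125, adjusted p = 0.00823), and its difference from the control libraries was 0.13 (adjusted p = 0.452). COX5A, which faces the matrix, had 516 and 476 TPM with AXL shRNA, against 466 and 383 TPM with control shRNA (0.42, adjusted p = 0.0220). The COX5A call was lost without AXL shRNA P15, AXL shRNA P3 or control shRNA P3 (adjusted p up to 0.116). With TP-0903 COX5A had 411 and 392 TPM, against 447 and 405 TPM in control, and these overlapped.

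COX6C had 428 and 437 TPM with AXL shRNA, against 424 and 326 TPM with control shRNA (0.46, adjusted p = 0.0225, lost without the same 3 libraries, up to 0.110). COX6B1, which binds near cytochrome c, had 588 and 574 TPM with AXL shRNA, against 588 and 479 TPM with control shRNA (0.39, adjusted p = 0.0315). The TPM ranges of COX6B1 overlapped, its call was lost in 6 of the 8 fits without 1 library (up to an adjusted p of 0.154 without control shRNA P3), and with TP-0903 it had 749 and 675 TPM, against 635 and 643 TPM in control (0.17, adjusted p = 0.361). The testis-associated paralogue COX6B2 was at the foot of the range, with 0.70 and 1.59 TPM with AXL shRNA, against 0.97 and 0.40 TPM with control shRNA, and 0.32 and 0.67 TPM with TP-0903, against 0.93 and 0.80 TPM in control. Its log2 fold change of 0.87 with AXL shRNA had a standard error of 0.595 (adjusted p = 0.286).

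In the isoform pairs of complex IV the common form carried nearly all of the transcripts. COX4I1, the common form of subunit 4, had 626 and 601 TPM with AXL shRNA, against 726 and 657 TPM with control shRNA, and 655 and 613 TPM with TP-0903, against 671 and 623 TPM in control, while its hypoxia- and lung-associated paralogue COX4I2 had no count. COX6A1, the common form, had 768 and 832 TPM with AXL shRNA, against 884 and 947 TPM with control shRNA, and 770 and 716 TPM with TP-0903, against 669 and 730 TPM in control, while the heart and muscle form COX6A2 had no count. COX7A2 had 276 and 276 TPM with AXL shRNA, against 364 and 333 TPM with control shRNA, and 361 and 329 TPM with TP-0903, against 343 and 361 TPM in control, while the muscle form COX7A1 reached 0.41 TPM at most. These common forms passed in neither comparison.

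COX7A2L, which takes part in joining complexes III and IV, had 105 and 143 TPM with AXL shRNA, against 127 and 149 TPM with control shRNA, and 94.2 and 115 TPM with TP-0903, against 112 and 135 TPM in control. COX5B had 175 and 226 TPM with AXL shRNA, against 247 and 295 TPM with control shRNA, and 194 and 254 TPM with TP-0903, against 199 and 257 TPM in control. In both genes the lower P numbers, 3 and 4, gave the higher level in each group. COX8A had 447 and 418 TPM with AXL shRNA, against 503 and 444 TPM with control shRNA, and 664 and 559 TPM with TP-0903, against 671 and 614 TPM in control. NDUFA4, named after complex I but now counted as a subunit of complex IV, had 82.7 and 94.8 TPM with AXL shRNA, against 124 and 104 TPM with control shRNA, and 126 and 117 TPM with TP-0903, against 111 and 118 TPM in control. None of these genes passed in either comparison.

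Of the 15 genes of ATP synthase, which makes ATP, 6 were higher and 5 lower with AXL shRNA, and none passed with TP-0903. Over all genes 18.5% were higher and 19% lower with AXL shRNA, and 4.9% higher and 6.35% lower with TP-0903. ATP5B (current name ATP5F1B), the catalytic beta subunit, had 817 and 807 TPM with AXL shRNA, against 600 and 571 TPM with control shRNA, and 752 and 797 TPM with TP-0903, against 788 and 809 TPM in control. The control shRNA libraries were the low ones, and the other groups lay together. ATP5B changed by 0.73 on the log2 scale with AXL shRNA (SE 0.111, adjusted p = 0.00290), and 0.24 against control (adjusted p = 0.126). ATP5A1, the alpha subunit that alternates with beta in the F1 head, had 296 and 268 TPM with AXL shRNA, against 274 and 227 TPM with control shRNA, and 327 and 328 TPM with TP-0903, against 363 and 332 TPM in control. The ATP5A1 ranges of the shRNA groups overlapped in TPM, the log2 fold change of CPM was 0.42 (adjusted p = 0.0259), and against control it was -0.09 (adjusted p = 0.577). The call was lost in 5 of the 8 fits without 1 library, up to an adjusted p of 0.128 without AXL shRNA P15.

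The gamma and epsilon subunits of the F1 head moved the other way. ATP5C1, the gamma subunit that turns within it, had 150 and 146 TPM with AXL shRNA, against 243 and 190 TPM with control shRNA, and 306 and 290 TPM with TP-0903, against 316 and 292 TPM in control. Its log2 fold change was -0.35 (adjusted p = 0.0362), the call was lost in 7 of the 8 fits (up to 0.147 without control shRNA P15), and against control the change was -0.86 (adjusted p = 0.00125). ATP5E, the epsilon subunit, had 46.2 and 44.5 TPM with AXL shRNA, against 82.4 and 66.7 TPM with control shRNA, and 86.2 and 75.5 TPM with TP-0903, against 75.0 and 73.4 TPM in control. Its log2 fold change was -0.49 (adjusted p = 0.0159), lost without AXL shRNA P3 (0.0899) or control shRNA P15. ATPIF1, the natural inhibitor of the enzyme and no member by the symbol rule, had 143 and 129 TPM with AXL shRNA, against 198 and 160 TPM with control shRNA (-0.14, adjusted p = 0.385), and 202 and 210 TPM with TP-0903, against 195 and 204 TPM in control (0.06, adjusted p = 0.777).

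In the peripheral stalk, which holds the F1 head still, ATP5H (subunit d) had 160 (P15) and 157 TPM (P3) with AXL shRNA, against 420 and 351 TPM with control shRNA, and 548 (P17) and 494 TPM (P4) with TP-0903, against 557 and 511 TPM in control. The AXL shRNA libraries were the lowest of the series, the control shRNA libraries came next, and the other 4 lay together. ATP5H changed by -1.01 on the log2 scale with AXL shRNA (SE 0.115, adjusted p = 0.00107 in edgeR), at most an adjusted p of 0.00959 with 1 library left out, and -1.51 against control (adjusted p = 3.29e-04). With TP-0903 it was -0.01 (adjusted p = 0.955). The gene lies on the minus strand of chromosome 17 at 75038863 to 75046985 and overlaps exons of KCTD2 on the plus strand, which had 50.9% of its counts and was higher with AXL shRNA (log2 fold change 1.21). ATP5F1, subunit b of the same stalk, was higher, at 218 and 202 TPM with AXL shRNA, against 196 and 170 TPM with control shRNA (0.41, adjusted p = 0.0296, lost in 6 of the 8 fits, up to 0.130 without AXL shRNA P15). The stalk genes ATP5O and ATP5J passed in neither comparison, but with the block ATP5O was lower with AXL shRNA (-0.29, adjusted p = 0.0351).

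The membrane subunits e and g, which take part in joining ATP synthase into dimers, were both higher than with control shRNA, and neither passed against control. For subunit g the change against control was 0.05 (adjusted p = 0.716 in edgeR). Its mean was 166 TPM with AXL shRNA, below 199 TPM with TP-0903 and 195 TPM in control. ATP5I (subunit e) had 413 and 382 TPM with AXL shRNA, against 295 and 274 TPM with control shRNA, and 445 and 418 TPM with TP-0903, against 396 and 355 TPM in control. ATP5I changed by 0.80 on the log2 scale with AXL shRNA (SE 0.117, adjusted p = 0.00251), and 0.34 against control (adjusted p = 0.0539). The control shRNA libraries were the low ones. ATP5L (subunit g) had 170 and 162 TPM with AXL shRNA, against 162 and 126 TPM with control shRNA (0.44, adjusted p = 0.0122), lost without AXL shRNA P15, AXL shRNA P3 or control shRNA P3, up to an adjusted p of 0.0690. ATP5S, an assembly gene also called factor B, was lower, at 8.03 and 5.75 TPM with AXL shRNA, against 14.6 and 13.9 TPM with control shRNA (-0.69, adjusted p = 0.00886, lost without AXL shRNA P3 at 0.0504).

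**Figure D2:**
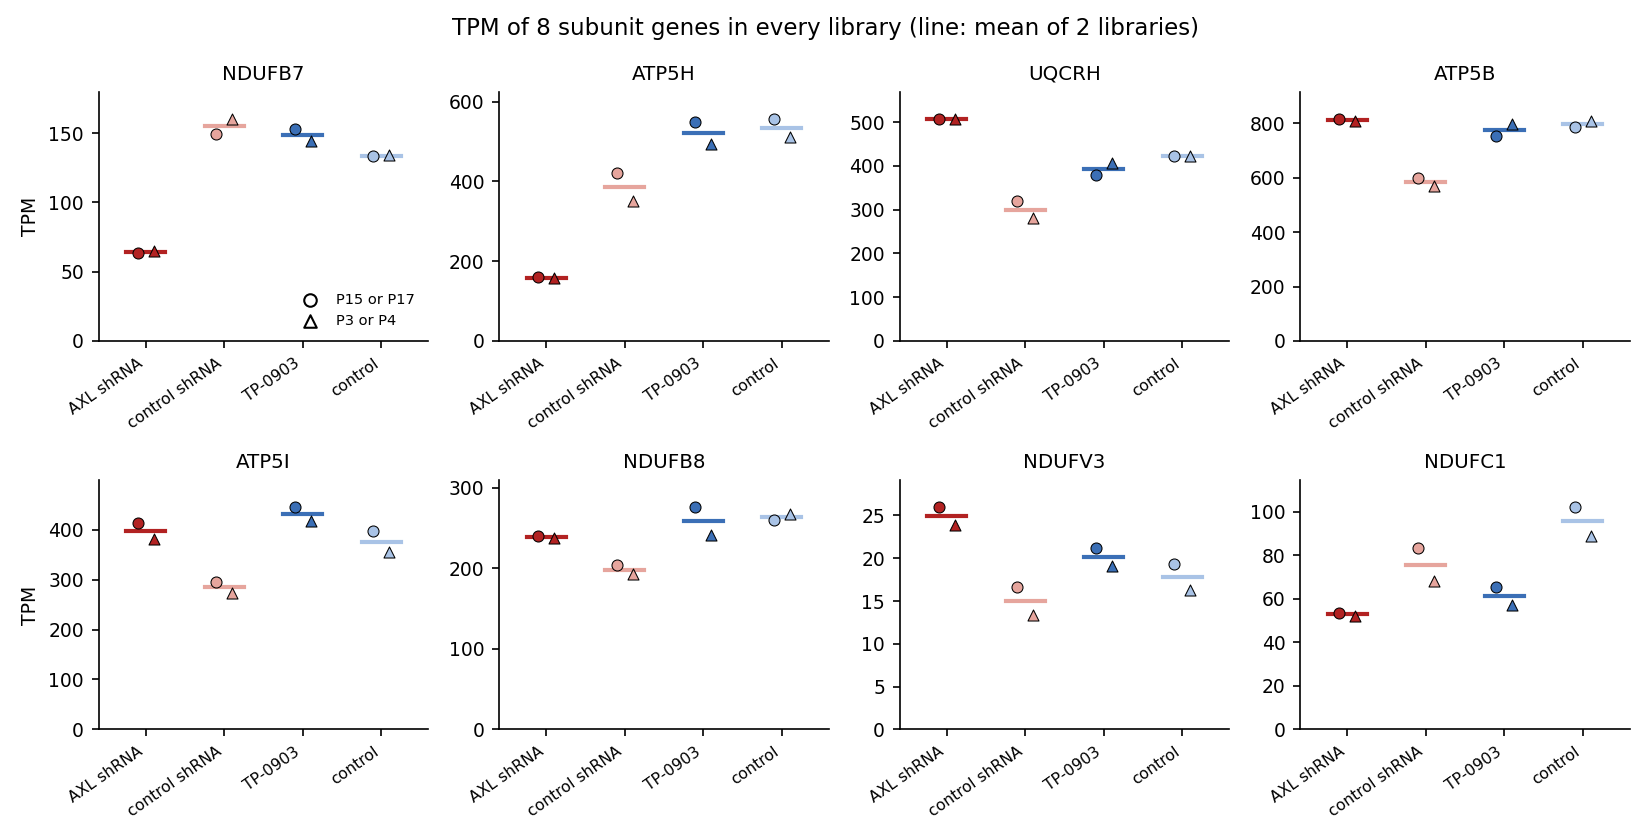
TPM of 7 members whose AXL shRNA calls held without any 1 library, and of NDUFC1, called with TP-0903, in each of the 8 libraries, 1 point per library (line, mean), grouped as AXL shRNA, control shRNA, TP-0903 and control. ATP5H and NDUFB7 are lowest in both AXL shRNA libraries, and UQCRH is highest there and lowest in both control shRNA libraries.

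The c-ring, the rotor that protons turn, is built from identical copies of subunit c, encoded by ATP5G1, ATP5G2 and ATP5G3, which differ in their import sequences. ATP5G1 and ATP5G3 were added beside ATP5G2 after their values had been seen. The genes changed in opposite directions with AXL shRNA. ATP5G2 had 255 and 275 TPM with AXL shRNA, against 531 and 625 TPM with control shRNA, and 411 and 484 TPM with TP-0903, against 528 and 547 TPM in control. Its AXL shRNA libraries were the lowest (log2 fold change -0.88, SE 0.144, adjusted p = 0.00382). ATP5G1 had 217 and 227 TPM with AXL shRNA, against 350 and 415 TPM with control shRNA, and 502 and 490 TPM with TP-0903, against 586 and 546 TPM in control. Here too the AXL shRNA libraries were the lowest, with the control shRNA libraries next (-0.56, SE 0.135, adjusted p = 0.0162, lost without AXL shRNA P15, AXL shRNA P3 or control shRNA P3, up to 0.0710). ATP5G3 had 230 (P15) and 341 TPM (P3) with AXL shRNA, against 162 (P15) and 179 TPM (P3) with control shRNA, and 250 and 322 TPM with TP-0903, against 255 and 304 TPM in control. The control shRNA libraries were the low ones (0.91, SE 0.212, adjusted p = 0.0141, lost without AXL shRNA P3 or control shRNA P15, up to 0.0818).

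The sum of the c genes was 702 and 843 TPM with AXL shRNA, against 1042 and 1218 TPM with control shRNA, and 1163 and 1295 TPM with TP-0903, against 1369 and 1397 TPM in control. ATP5G2 made up 36.4% and 32.6% of that sum with AXL shRNA, against 50.9% and 51.3% with control shRNA, and 35.4% and 37.4% with TP-0903, against 38.6% and 39.1% in control. ATP5G3 made up 32.7% and 40.5% with AXL shRNA, against 15.5% and 14.7% with control shRNA, and 21.5% and 24.8% with TP-0903, against 18.6% and 21.8% in control. The control shRNA libraries therefore had the largest ATP5G2 share and the smallest ATP5G3 share. With 2 libraries against 2 an exact permutation test cannot go below p = 0.333, so none was run on these shares.

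**Figure D3:**
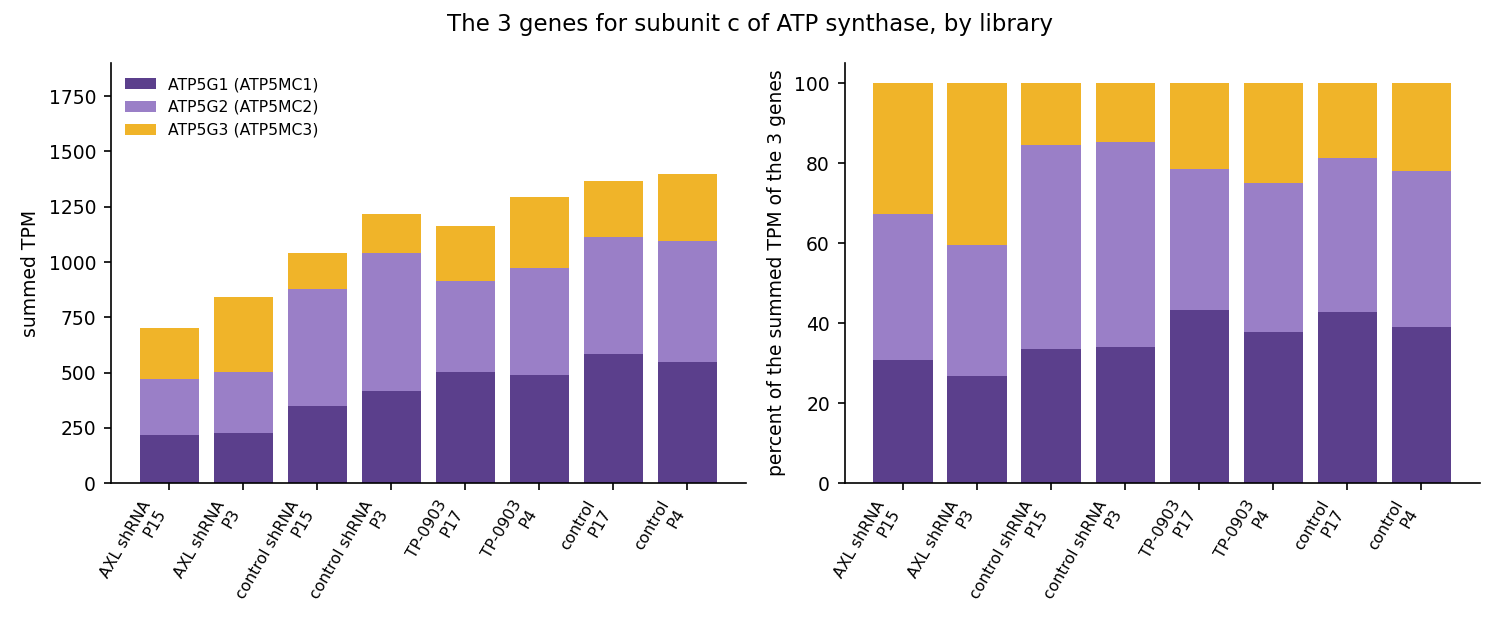
TPM of the c subunit genes ATP5G1, ATP5G2 and ATP5G3 in each of the 8 libraries. ATP5G2 is the largest part in both control shRNA libraries (50.9% and 51.3%), and ATP5G3 is at its largest share in both AXL shRNA libraries (32.7% and 40.5%).

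The control shRNA libraries differed from the control libraries in several of these genes, so the choice of control matters. Relative to control, 0 members were higher in control shRNA libraries in edgeR (2 at an unadjusted p under 0.05, 1 in DESeq2), where 3.06% of all genes were, and 10 of 79 (12.7%) were lower, where 6.09% of all genes were: NDUFB6, NDUFB8, NDUFS3, UQCRH, ATP5A1, ATP5B, ATP5C1, ATP5G1, ATP5H and ATP5J2. Of these 10, 6 belong to ATP synthase. The lowest was NDUFB6 (log2 fold change -0.68, adjusted p = 0.0366), at 78.9 and 55.5 TPM in control shRNA, against 119 and 104 TPM in control. With any 1 library left out at most 1 of these 10 calls was left, and the groups carry different P numbers, so hairpin and culture cannot be told apart.

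Set against the control libraries in place of control shRNA, a comparison added after the data had been seen, AXL shRNA gave 5 members higher and 17 lower, where 17.3% of all genes were higher and 19.5% lower. The higher members were NDUFV2, NDUFV3, UQCRH, COX5A and COX6A1. Among the lower were 8 genes of complex I, SDHB and SDHC, and 6 genes of ATP synthase: ATP5C1, ATP5E, ATP5G1, ATP5G2, ATP5H and ATP5O. ATP5H had the largest of these changes (-1.51) and ATP5G1 the next (-1.18, adjusted p = 0.00104). Of the 29 calls against control shRNA, 12 were kept and 24 had the same sign. The median of the members was -0.07 there, beside -0.02 over all genes. Both comparisons share the AXL shRNA libraries.

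The effects of TP-0903 and AXL shRNA were compared as the TP-0903 effect minus the AXL shRNA effect. Each effect is measured against its own control, so this difference also contains any gap between control shRNA and control libraries. Of the members named below, NDUFB8, UQCRH, ATP5B and ATP5H were called lower in control shRNA than in control. ATP5B averaged 812 TPM with AXL shRNA, 774 TPM with TP-0903 and 798 TPM in control, but 586 TPM with control shRNA. The difference was above 0 for 4 members, where 9.82% of all genes were, and below 0 for 6, where 10.8% of all genes were. NDUFB7 (difference 1.18, SE 0.165, adjusted p = 0.00422), ATP5H (0.99, SE 0.161, adjusted p = 0.00681) and UQCRH (-1.08, SE 0.139, adjusted p = 0.00331) held when any 1 library was left out. ATP5B (-0.74, adjusted p = 0.0174) lost the call in 6 of the 8 fits, up to 0.0713 without TP-0903 P17, and so did ATP5E (0.66, adjusted p = 0.0311), up to 0.105 without TP-0903 P17. NDUFB8, NDUFS6, NDUFV2, ATP5I and ATP5S lost it in 7 or 8 of the fits. With the P number as a block the difference was above 0 for 6 members and below 0 for 14. Of all 17676 tested genes, it was above 0 for 3282 and below 0 for 3248 in that fit.

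Summed levels were compared as well. The 80 subunit genes together held 15713 ± 213 TPM with AXL shRNA and 17030 ± 1340 TPM with control shRNA (SD, n = 2 each), and 19358 ± 670 TPM with TP-0903 and 19437 ± 502 TPM in control (SD, n = 2 each). They took 1.56% to 1.98% of all TPM. Complex V had 4131 ± 52.2 TPM with AXL shRNA and 4546 ± 257 TPM with control shRNA (SD, n = 2 each), and 5927 ± 69.2 TPM with TP-0903 and 6000 ± 285 TPM in control (SD, n = 2 each). Both shRNA groups were thus below both groups without a hairpin. The sign of the AXL shRNA difference flipped with the scale: log2 of the ratio for complex V was -0.14 in TPM and 0.29 in CPM. For complex I it was -0.19 and 0.08, for complex II -0.05 and 0.14, and for complex IV -0.10 and 0.16. For complex III it was 0.06 and 0.18, above 0 on both. The ratio of TP-0903 to control was -0.01 on the log2 scale for all 80 genes.

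**Figure D4:**
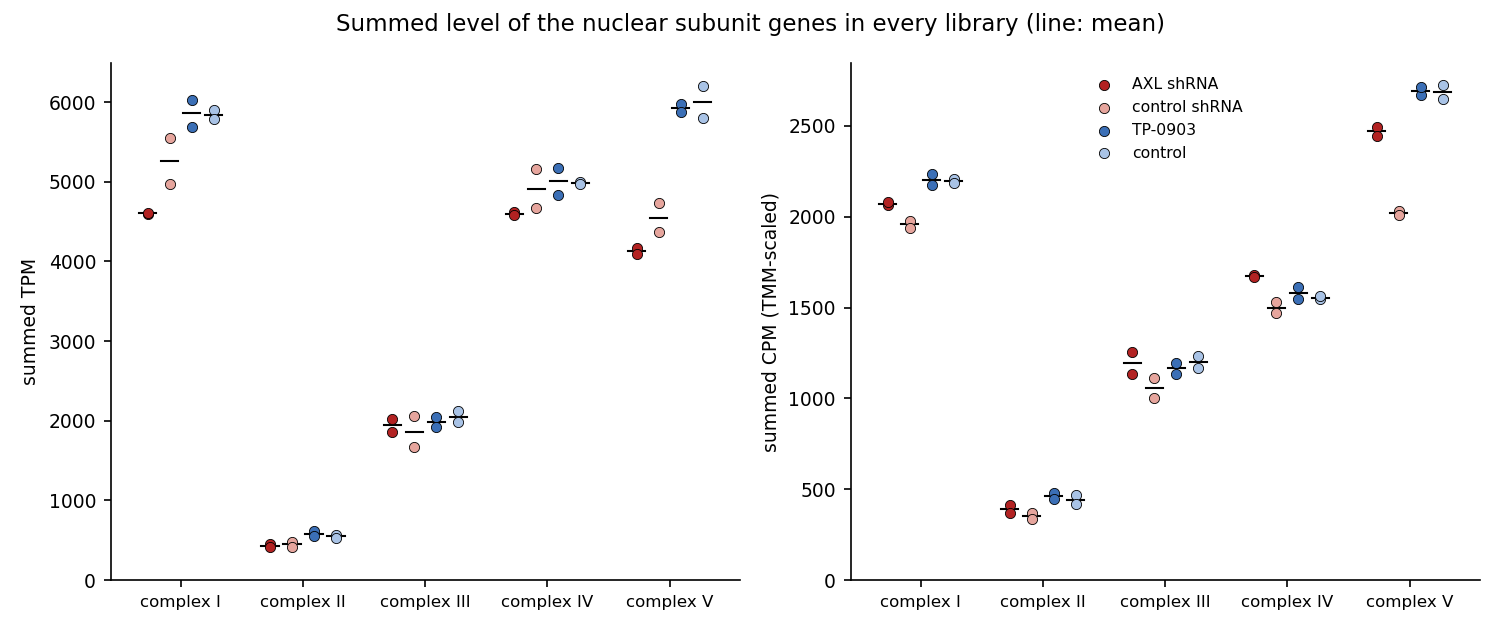
Summed TPM of the nuclear genes of each complex in each of the 8 libraries, 1 point per library. The sum for complex V is lower in the 4 shRNA libraries than in the 4 libraries without a hairpin, and TP-0903 and control libraries lie together.

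The partner lists cover other genes of the pathway. The 13 subunits encoded in mitochondrial DNA had 7 members higher and 0 lower with AXL shRNA (median log2 fold change 0.75), and 2 higher and 0 lower with TP-0903 (median 0.67), where all 13 were above 0. Of all genes 18.5% were higher with AXL shRNA and 4.9% with TP-0903. With 1 library left out the count was 4 to 8 with AXL shRNA (4 without AXL shRNA P3 or control shRNA P15) and 0 to 4 with TP-0903, with 0 left without any 1 of the TP-0903 and control libraries. With TP-0903 12 passed in DESeq2 and 13 with the P number as a block. Of all 17676 tested genes, 1492 were higher in that DESeq2 fit and 2285 with the block. MT-ND6, a complex I subunit, had 2032 and 2475 TPM with AXL shRNA, against 829 and 1066 TPM with control shRNA (1.504, adjusted p = 0.00160). MT-ND6 and MT-ND5 (1.40, adjusted p = 0.00383) lie next to each other on opposite strands. MT-CO2, of complex IV, had 18963 and 18555 TPM with TP-0903, against 12529 and 11467 TPM in control (0.67, adjusted p = 0.0290), and this call was lost without any 1 of these 4 libraries, up to an adjusted p of 0.143 without TP-0903 P17. MT-CYB, the cytochrome b of complex III, was higher with TP-0903 as well (0.69, adjusted p = 0.0432), lost in 6 of the 8 fits, up to 0.206 without TP-0903 P17.

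Assembly factors, which help build the complexes and are not part of them, had more members lower than higher with AXL shRNA in edgeR. For complexes II and III 6 of 10 were lower and 0 higher (median -0.54), for complex IV 9 of 24 were lower and 0 higher (median -0.23), and for complex I 5 of 17 were lower and 2 higher, where 19% of all genes were lower and 18.5% higher. The complex IV factors that were higher numbered 2 at an unadjusted p under 0.05, 1 in limma-voom and 2 in DESeq2, and those of complexes II and III 0 in each. Of all 17676 tested genes, 3294 were higher in limma-voom and 3495 in DESeq2. With any 1 library left out the lower ones numbered 4 for complexes II and III, 6 to 8 for complex IV and 0 to 5 for complex I. TTC19, which clears fragments of the Rieske protein from complex III, had 14.13 and 12.04 TPM with AXL shRNA, against 56.3 and 45.9 TPM with control shRNA, and 32.3 and 32.7 TPM with TP-0903, against 29.8 and 34.9 TPM in control (AXL shRNA -1.74, adjusted p = 3.92e-04). SURF1, needed early in complex IV assembly, had 18.9 and 17.3 TPM with AXL shRNA, against 76.8 and 68.2 TPM with control shRNA, and 46.0 and 39.0 TPM with TP-0903, against 39.6 and 39.8 TPM in control (AXL shRNA -1.73, adjusted p = 3.92e-04). In both genes the AXL shRNA libraries were the lowest and the control shRNA libraries the highest.

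With log2 fold changes in brackets, SDHAF3 (-1.30), which helps to mature SDHB, PET117 (-1.64) for complex IV, and ATPAF1 (-1.27) and FMC1 (-1.13) for the F1 head were lower with AXL shRNA in every fit without 1 library. For complex I, TMEM126A (-0.62) and NDUFAF1 (-0.66) were lower and NDUFAF7 (0.51) and NDUFAF4 (0.40) higher, and each of these calls was lost in 2 or more such fits. TMEM70 (0.38), which acts in assembling the c-ring, was higher and lost in 7 of the 8. With TP-0903 the complex I factor FOXRED1 was lower (-0.97, adjusted p = 0.0108, lost without control P17 at 0.0757 and without either TP-0903 library), and 0 assembly factors of complexes II to V passed in edgeR, where an unadjusted p under 0.05 gave 1 higher and 2 lower for complexes II and III, 1 higher and 4 lower for complex IV, and none for ATP synthase.

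Of 4 tested genes that encode further subunits outside the symbol rule or cytochrome c, the NDUFA4 paralogue NDUFA4L2, known as a hypoxia-inducible gene, had 0.19 and 0.24 TPM with AXL shRNA, against 5.07 and 6.88 TPM with control shRNA, and 0.56 and 0.82 TPM with TP-0903, against 1.74 and 2.26 TPM in control. It was lower with AXL shRNA (-4.30, adjusted p = 5.51e-04) and with TP-0903 (-1.73, adjusted p = 0.0217), the second of which was lost without any 1 of the TP-0903 and control libraries (up to 0.169 without TP-0903 P17). NDUFAB1, the acyl carrier protein found in complex I, was lower with AXL shRNA (-0.43, adjusted p = 0.0105, lost without AXL shRNA P3 at 0.0626). UQCRHL, the UQCRH copy, was higher (1.23, adjusted p = 0.00510), as UQCRH was, and the counting could split reads between them.

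Regulators of respiratory gene transcription changed in both comparisons: 5 of 14 tested were higher and 4 lower with AXL shRNA, and 0 higher and 5 lower with TP-0903 (NRF1, HCFC1 and, named after their values were seen, GABPA, GABPB2 and CREB1). Over all genes 18.5% were higher and 19% lower with AXL shRNA, and 4.9% higher and 6.35% lower with TP-0903. With 1 library left out 0 to 4 regulators were lower with TP-0903 (0 without TP-0903 P17 or control P17, 1 without TP-0903 P4 or control P4), and 4 to 5 were higher and 3 to 4 lower with AXL shRNA. HCFC1 (-0.50 with TP-0903, adjusted p = 0.0208) lost its TP-0903 call without any 1 of the TP-0903 and control libraries, up to 0.138. NRF1, a factor whose core letters stood in the promoters above, had 3.94 and 3.98 TPM with TP-0903, against 9.01 and 8.66 TPM in control (-1.10, adjusted p = 0.00589, lost without control P17 or TP-0903 P17, up to 0.0581). NRF1 had 5.06 and 6.60 TPM with AXL shRNA, against 6.87 and 5.99 TPM with control shRNA, which overlapped. PPRC1, a coactivator of NRF1, was higher with AXL shRNA (0.83, adjusted p = 0.00245), and so was MYC (1.23, adjusted p = 0.00352), while NFE2L1 (-1.02, adjusted p = 0.00122) and HCFC1 (-0.65, adjusted p = 0.00284) were lower. Of 13 genes that copy or transcribe mitochondrial DNA, 0 were higher and 3 lower with AXL shRNA, among them the helicase gene TWNK (-0.68) and the polymerase subunit gene POLG2 (-0.70, lost in 2 of the 8 fits, up to 0.0621 without control shRNA P3), and 1 to 3 were lower with 1 library left out, while an unadjusted p under 0.05 gave 3 higher. With TP-0903 0 passed in edgeR, with 2 lower at an unadjusted p under 0.05 and 2 lower in DESeq2, where 1510 of all 17676 tested genes were lower.

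In the tricarboxylic acid cycle, which supplies NADH and succinate, 5 of 16 genes were higher and 2 lower with AXL shRNA. IDH3A (0.82) and DLST (0.73) were higher, and SUCLG2 (-1.23) was lower. With TP-0903 OGDH was higher (0.54, adjusted p = 0.0332, lost in 6 of the 8 fits, up to 0.217 without TP-0903 P17). Of 13 genes for coenzyme Q synthesis 3 were higher and 8 lower with AXL shRNA, and 0 were higher and 4 lower with TP-0903, beside the same shares of all genes (18.5% and 19%, 4.9% and 6.35%). With 1 library left out 1 to 3 were higher and 4 to 7 lower with AXL shRNA (1 and 4 without control shRNA P15, 1 and 6 without AXL shRNA P15, 2 and 5 without AXL shRNA P3, 2 higher without control shRNA P3), and 0 to 3 were lower with TP-0903 (0 without control P17, control P4 or TP-0903 P17, 1 without TP-0903 P4, 2 without either control shRNA library). COQ5 was lower in both (-1.14 with AXL shRNA, -0.56 with TP-0903), as was COQ7 (-1.23 and -0.81), with both TP-0903 calls lost without TP-0903 P17, at adjusted p of 0.187 and 0.159. PDSS1 (0.86) and COQ2 (0.84) were higher with AXL shRNA, COQ2 losing its call in 3 of the 8 fits (up to 0.115 without AXL shRNA P15), and neither passed against control. With TP-0903 both were lower (PDSS1 -0.75, adjusted p = 0.0340; COQ2 -0.89, adjusted p = 0.0471), calls lost in 8 and 6 of the 8 fits. Of 24 genes for mitochondrial protein import 4 were higher and 9 lower with AXL shRNA, where 18.5% and 19% of all genes were. Without control shRNA P3 these numbered 2 and 5, without AXL shRNA P3 3 and 6, and without control shRNA P15 2 and 9. TOMM40 (0.98) and TOMM5 (0.83) of the outer membrane were higher, and TIMM17A (-1.64) and HSPA9 (-1.14) of the inner membrane and its motor were lower. TOMM5 had 281 and 268 TPM with AXL shRNA, against 185 and 182 TPM with control shRNA. It had 293 and 277 TPM with TP-0903 and 306 and 268 TPM in control, so only the control shRNA libraries were low. Against control TOMM5 did not pass (0.16, adjusted p = 0.264 in edgeR), while TOMM40 did (0.40, adjusted p = 0.0339). With TP-0903 TIMM10 was the import gene that passed (-0.61, adjusted p = 0.0411, lost in 6 of the 8 fits, up to 0.209 without control P4).

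**Figure D5:**
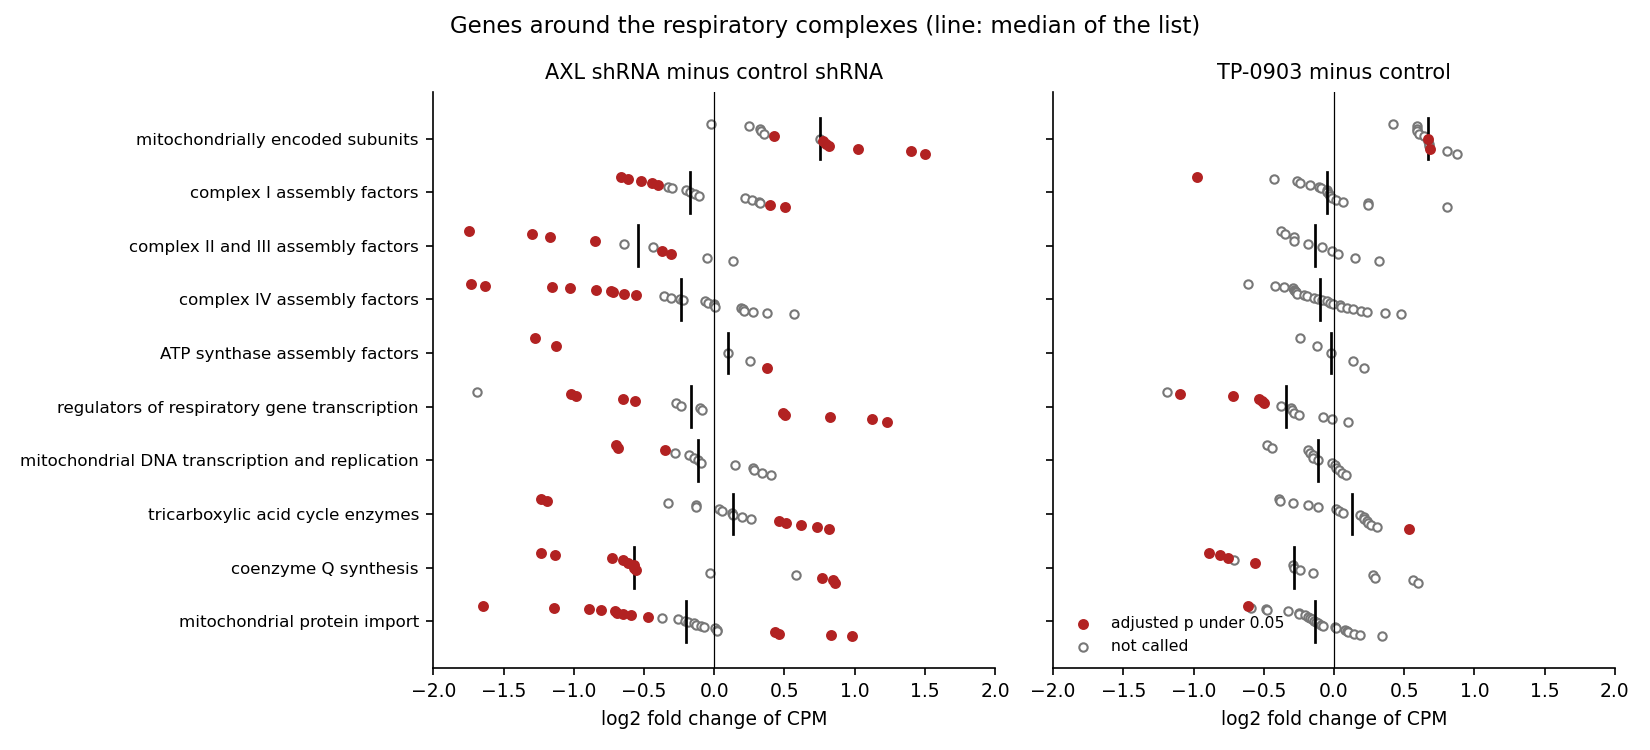
Log2 fold change of the genes of each partner list for AXL shRNA minus control shRNA and for TP-0903 minus control, 1 point per gene, with filled points past an adjusted p of 0.05. With AXL shRNA the assembly factors of complexes II to IV have filled points below 0 alone (6 of 10 and 9 of 24), and the mitochondrial subunits have them above 0 alone (7 of 13).

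Sequences in the 3′ untranslated region (UTR) were looked at because an earlier search of these data had linked the letters TGAAGGAA to lower levels with AXL shRNA, so the counts are not independent of these libraries. In the longest annotated 3′ UTR (GENCODE 29), 5 of 77 tested subunit genes (6.49%) held the 8 letters, against 7.44% of 14123 tested genes. Of the 9 subunit genes that were lower with AXL shRNA 1 held them (ATP5E), and of the 19 that were higher 0 did, beside 13.2% of all lower and 3.82% of all higher genes. With the first or last 7 of these letters, ATP5C1 joins the lower genes and NDUFS6 and NDUFS3 are found among the higher ones. Subunit genes have short 3′ UTRs, with a median of 451 bases against 1339 bases over all genes. The sites of the lower genes are given first, with the matching letters in capitals.
ATP5E, lower with AXL shRNA: tgtgagcaaagTGAAGGAAtcggataagct
ATP5C1, lower with AXL shRNA: caagaggtaaaGAAGGAAaattcagccag
NDUFS6, higher with AXL shRNA: gaggtgcatagTGAAGGAgggtgcccagg
NDUFS3, higher with AXL shRNA: ctacactctagTGAAGGAgaaagacacct
NDUFB7, ATP5H, ATP5G1 and ATP5G2 hold neither the 8 letters nor 7 of them.

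Shared exons limit some values. Of the members, 41 share exon bases with another gene whose expected counts were above 0, 22 of them with a gene that has more than 10% of their counts, and 8 of the 29 called members are among these 22. UQCRH, NDUFB7, ATP5B, ATP5G1 and ATP5G3 share none. ATP5I overlaps MYL5 on the other strand (13.9% of its counts).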

How the data were processed

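Total RNA of 8 A549 libraries was sequenced from Nextera XT libraries, per the labels, which state no strand. Per the submitters' processing notes, STAR 2.5.3a, RSEM and the build GRCh38 were used. The RSEM version and the annotation were not given in the sources used here. Expected counts, as deposited, are estimated read counts per gene and library without normalization. The deposited TPM are the authors' RSEM levels per transcript length within a library. The deposited FPKM come from the same run and were not tested, and the deposited effective lengths were used as offsets in an alternative.

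Expected counts were rounded, filtered with filterByExpr and scaled by TMM, and edgeR 4.0.16 (R 4.3.3) fitted its quasi-likelihood model to all 8 libraries with 1 term per group. Tests were two-sided, with Benjamini-Hochberg adjustment over 17676 genes and a threshold of 0.05, and were checked on simulated counts. The SE is the log2 fold change divided by the square root of F. Totals of 30067011 to 44217023 expected counts limit the precision less than the spread between libraries, which was 21.5% (the biological coefficient of variation). Within groups, 46.7% to 52.3% of genes differed between libraries beyond counting error, so none is a repeat of another. Intervals and floors cover counting error only.

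The P numbers were taken to pair libraries: deviations from group means correlated, across genes, at 0.54 for same-numbered shRNA libraries and 0.61 for same-numbered TP-0903 and control libraries, against 0.18 to 0.38 for groups that share no number. The block is given in the member counts and for some genes whose call it changes. Other calls it changes are not listed by gene. Among them are NDUFA2, NDUFA3, NDUFB1, NDUFB5, NDUFC2 and ATP5J2 with AXL shRNA, ATP5G2, ATP5G3 and COX7B in the difference, and NDUFAF8 with TP-0903. Alternatives covered scaling, the filter, DESeq2 1.42.0, limma 3.58.1 (voom, and log2 of TPM plus 1), a test against a fold change of 1.5, the block, effective lengths, fits of 4 libraries only, each library left out, and, added after seeing the data, control in place of control shRNA. With a library left out, the lone sample of its group is assumed to vary like the others.

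Named throughout were the catalytic, core and isoform genes of each complex, the 3 members of each complex with the smallest p in each direction, the 5 with the smallest p for the difference, and the 2 partner genes of each list with the smallest p in each direction. Other called members were named for completeness. A few genes under this rule are not reported here. Members and lists were chosen with earlier results of these data known. Positions come from GENCODE 29, promoters from RefSeq.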

Additional observations from a re-analysis of the deposited data

Results flagged for a closer look

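For 10 members the TP-0903 effect and the AXL shRNA effect differed by the interaction test (log2, TP-0903 effect minus AXL shRNA effect, edgeR with Benjamini-Hochberg adjustment over all genes). The difference was above 0 for NDUFB7 (1.18), ATP5H (0.99), ATP5S (0.69) and ATP5E (0.66). It was below 0 for UQCRH (-1.08), ATP5B (-0.74), NDUFS6 (-0.62), ATP5I (-0.58), NDUFB8 (-0.53) and NDUFV2 (-0.52). In all 10 the AXL shRNA effect passed the threshold by itself and the TP-0903 effect did not. These effects have different controls, so a gap between control shRNA and control libraries also enters the differences. The differences of NDUFB7, ATP5H and UQCRH passed in every fit that left out 1 library.

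Among partner genes the same test passed for several assembly factors. SURF1 (1.86), TTC19 (1.77), PET117 (1.36), FMC1 (1.26), ATPAF1 (1.25), SDHAF3 (1.11) and NDUFAF1 (0.72) were above 0, and FOXRED1 (-1.19) and TMEM70 (-0.62) were below 0. For FOXRED1 the control libraries were higher than every other library. Of other subunit genes NDUFA4L2 (2.58) and NDUFAB1 (0.65) were above 0 and UQCRHL (-1.37) was below 0.

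Of the regulators, NFE2L1 (1.01) was above 0, and MYC (-1.61), PPRC1 (-1.13) and NRF1 (-0.86) were below 0. Among the enzymes of the tricarboxylic acid cycle IDH3A (-0.80) was below 0. For coenzyme Q synthesis COQ5 (0.58) was above 0, and COQ2 (-1.73) and PDSS1 (-1.61) were below 0. For protein import TIMM17A (1.79) and HSPA9 (0.89) were above 0, and TOMM40 (-1.19) and TOMM5 (-0.82) were below 0. Partner genes were picked by their p in the main comparisons, which share libraries with this difference. A gap between control shRNA and control libraries enters these differences too, as for TOMM5, where only the control shRNA libraries were low.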

How the results depend on the processing

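Calls with AXL shRNA (19 members higher, 10 lower) numbered 11 higher without the count filter, 1 higher and 2 lower in the test against a fold change of 1.5, 10 and 6 with the 4 libraries alone, 5 and 19 on log2(TPM + 1), 5 and 17 with control in place of control shRNA, and 6 to 14 higher and 3 to 9 lower with 1 library left out (6 and 3 without AXL shRNA P3, 7 and 9 without control shRNA P3, 8 and 7 without AXL shRNA P15, 11 and 5 without control shRNA P15). The replicate block gave 27 and 15, where 4523 of all 17676 tested genes were higher and 4615 lower. Calls over all genes moved with the other settings too. Without the filter 3815 of 31048 genes were higher and 3962 lower. Against a fold change of 1.5 these numbered 1257 and 1265, and with the 4 libraries alone 2714 and 2615 of 16932. On log2(TPM + 1) they were 2008 and 4404, and with control in place of control shRNA 3066 and 3441. Fewer of all genes also passed in each fit without 1 library. The median of the members (0.10) was -0.14 on the TPM scale and -0.0719 against control. With control in place of control shRNA, SDHA (-0.0504), ATP5A1 (-0.0902), NDUFS6 (-0.00135), NDUFS3 (-0.0788), ATP5F1 (-0.0173), PDSS1 (-0.16) and FOXRED1 (-0.84) reversed sign.

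TP-0903 calls (0 higher, 1 lower) were 2 and 2 with the replicate block, and 0 lower in the test against a fold change of 1.5, with the 4 libraries alone and in each of the fits without 1 library (0 to 0). The difference of effects (4 above, 6 below 0) gave 1 and 1 against a fold change of 1.5, 9 and 2 on the TPM scale, 3 below 0 without the filter and 3 with effective lengths, 12 below 0 in DESeq2, 14 below 0 with the replicate block, and 2 to 4 above and 1 to 2 below with 1 library left out. Control shRNA against control (0 higher, 10 lower) gave 1 higher and 19 lower in DESeq2, 5 lower with effective lengths, 0 against a fold change of 1.5, 4 on the TPM scale and 0 to 1 with 1 library left out. Over all genes, TP-0903 calls were 145 higher and 403 lower against a fold change of 1.5. With the 4 libraries alone they were 729 and 887 of 16633. The difference gave 594 and 854 against that fold change, 2207 and 1266 on the TPM scale, and 2116 and 2323 in DESeq2. It gave 2509 and 2517 of 31048 without the filter, and 1385 and 1702 with effective lengths. Control shRNA against control gave 1211 and 1547 in DESeq2, 366 and 910 with effective lengths, 438 and 905 in TPM. Summed in CPM, log2 ratios of AXL shRNA to control shRNA were 0.0808 for complex I, 0.14 for II, 0.16 for IV, 0.29 for V and 0.18 for all. The cause of these shifts was not tested. NDUFB7, UQCRH and ATP5H passed under all settings with AXL shRNA. With 2 libraries per group, changes near the median SE of 0.119 are not detectable.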
